A study of Mus musculus with 6 samples.

Results

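S100 genes encode small EF-hand proteins that bind calcium and, on binding it, expose a surface that docks onto other proteins. S100A8 and S100A9 pair to form calprotectin, which neutrophils and some monocytes carry in large amounts in the cytosol and release during inflammation, where it binds zinc and manganese and acts on TLR4 and RAGE. Other family members act mainly inside stromal and epithelial cells: S100A4 and S100A6 in motile and mesenchymal cells, S100A10 and S100A11 as partners of annexins, S100A13 in the non-classical release of growth factors, and S100A1 in muscle.

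The genes described here were chosen by symbol from the 18697 genes of the count table. They are S100a1, S100a4, S100a6, S100a8, S100a9, S100a10, S100a11, S100a13 and S100a16, 9 of the 17 S100 genes listed there. They were chosen with earlier values of these libraries known, including the fold change of S100a8 between the groups. Fold changes of the members are therefore given as a description, with no test of their own. Each library came from mouse prostate inflamed by experimental autoimmune prostatitis, in which immunity is raised against antigens of the gland itself. One group of 3 had received VUF11207, a small molecule that activates CXCR7 (gene Ackr3, an atypical receptor for chemokines), by intraperitoneal injection at 5 mg per kg per day for 14 days. The other 3 had received the vehicle DMSO by the same route and for the same time, and both groups carried the model. No mice without prostatitis were among the samples, and the labels name no strain or age. Values are listed in the order unnumbered DMSO library, DMSO replicates 2 and 3, and VUF11207 replicates 1, 2 and 3. The unnumbered library has a column name that shows DMSO but matched no sample's own file.

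Libraries held 20308018 to 33368058 counts. The prostate homeobox gene Hoxb13 was at 182 to 805 CPM (read counts scaled by TMM to a common library size) and the prostate secretory gene Pbsn at 623 to 17695 CPM. Seminal vesicle genes took 63.3% of counts in DMSO replicate 2, 27.8% in VUF11207 replicate 1 and 0.695% to 16.3% in the other libraries. The specimens thus differed in tissue make-up within both groups.

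All 9 members had counts in every library and all 9 passed the low count filter. S100a8 and S100a9 passed it through the DMSO group: 3 of 3 DMSO libraries but 1 of 3 VUF11207 libraries reached the required 0.391 CPM before TMM scaling. Per kb of annotated exon, the mean level over the 6 libraries was highest for S100a11 (264 CPM per kb, range 168 to 363) and S100a6 (192, range 66.6 to 431). S100a10 (102) and S100a1 (87.1) came next, then S100a16 (47.5), S100a4 (46.1) and S100a13 (16.9). S100a9 at 4.87 CPM per kb (range 0.0648 to 15.4) and S100a8 at 2.22 (range 0.292 to 5.76) were the lowest. Several neighbours in this order changed places between libraries: S100a11 was above S100a6 in 4 of 6 libraries, S100a6 above S100a10 in 4, S100a10 above S100a1 in 3, S100a16 above S100a4 in 4 and S100a9 above S100a8 in 4. S100a1 was above S100a16, S100a4 above S100a13 and S100a13 above S100a9 in all 6. The exon lengths count every annotated transcript, so the per-kb levels of genes with many transcripts, such as S100a6, are low estimates.

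**Figure D1:**
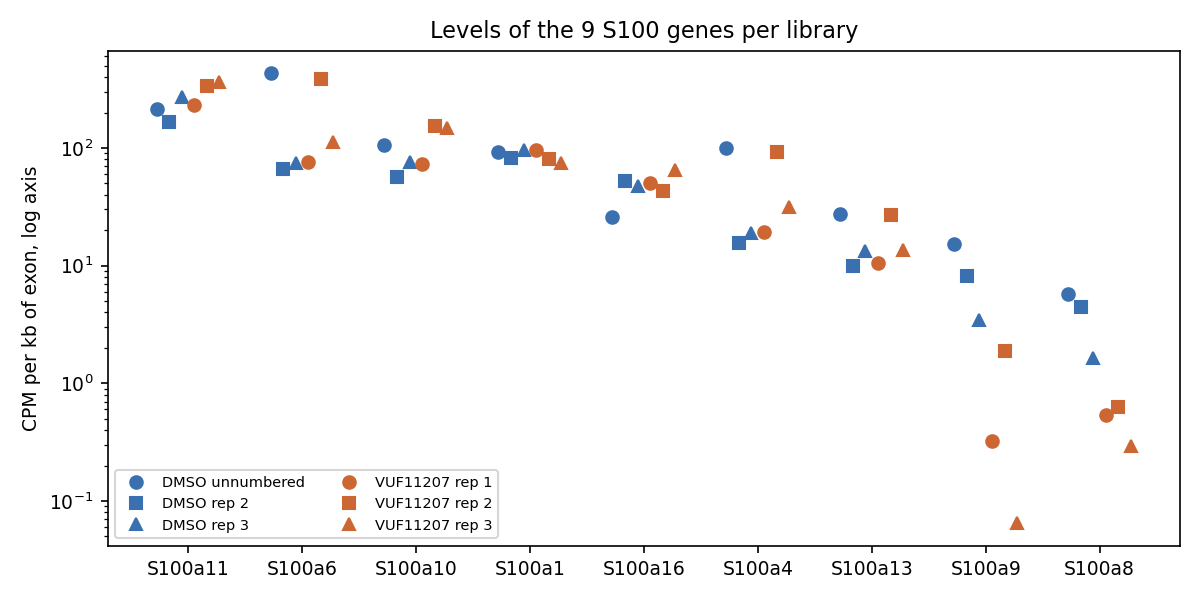
Level of each S100 gene in CPM per kb of annotated exon (log axis), 1 point per library, blue for DMSO and orange for VUF11207, genes ordered by their mean. S100a1 has the tightest points, S100a4 and S100a6 each have 1 library of either group far above the rest, and for S100a9 and S100a8 every blue point lies above every orange point.

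The calprotectin pair was lower in every VUF11207 library than in any DMSO library, from counts that were small throughout. S100a8 had 108, 44 and 35 counts with DMSO and 11, 13 and 6 counts with VUF11207, or 3.997, 3.10 and 1.13 CPM against 0.372, 0.436 and 0.203 CPM. The groups did not overlap, and the nearest values were DMSO replicate 3 and VUF11207 replicate 2. Means were 2.74 CPM ± 1.47 with DMSO and 0.337 CPM ± 0.121 with VUF11207 (SD, n = 3 each). The fitted log2 fold change was -3.00 ± 0.69 (SE), with a 95% interval from -4.65 to -1.36. S100a9 had 217, 60 and 56 counts with DMSO and 5, 29 and 1 counts with VUF11207, or 8.03, 4.23 and 1.81 CPM against 0.169, 0.973 and 0.0338 CPM. VUF11207 replicate 2 was the highest of its group for both genes, and the unnumbered library was the highest with DMSO. S100a9 averaged 4.69 CPM ± 3.14 with DMSO and 0.392 CPM ± 0.508 with VUF11207 (SD, n = 3 each). The fitted log2 fold change was -3.56 ± 1.16 (SE), with a 95% interval from -6.33 to -0.80. Without VUF11207 replicate 2 the log2 fold change of S100a9 was -5.46, and without the unnumbered DMSO library it was -2.92.

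Counting error is wide at these depths. The exact Poisson 95% interval of the single S100a9 count in VUF11207 replicate 3 runs from 0.0253 to 5.57 counts, and that of the 29 counts in VUF11207 replicate 2 from 19.4 to 41.6. For S100a8 the intervals were 2.20 to 13.1 counts in VUF11207 replicate 3 and 24.4 to 48.7 counts in DMSO replicate 3. These intervals cover counting error only. In CPM of total counts, without TMM, S100a8 was at 5.32, 1.32 and 1.39 with DMSO and 0.375, 0.544 and 0.231 with VUF11207, and S100a9 at 10.7, 1.80 and 2.22 against 0.171, 1.21 and 0.0385. The groups did not overlap on that scale either.

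**Figure D2:**
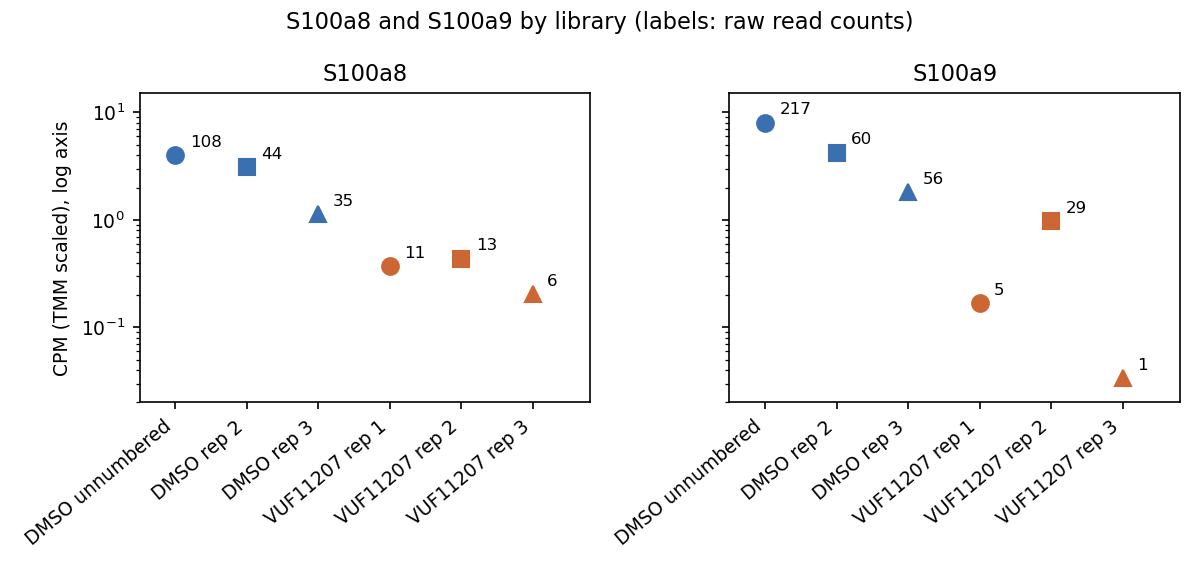
S100a8 (left) and S100a9 (right) in each library in CPM after TMM scaling (log axis), with the raw read count printed at each point, blue for DMSO and orange for VUF11207. All DMSO points lie above all VUF11207 points, and the lowest S100a9 point rests on 1 read.

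The relation of the partners to each other could be followed only where counts allowed it. S100a9 made up 66.8%, 57.7% and 61.5% of the reads of the pair with DMSO and 69.0% in VUF11207 replicate 2, with Wilson 95% intervals that overlap. It made up 31.3% of 16 reads in VUF11207 replicate 1 (14.2% to 55.6%) and 14.3% of 7 reads in VUF11207 replicate 3 (2.57% to 51.3%). Both genes put the 6 libraries in the same order: the unnumbered DMSO library, DMSO replicates 2 and 3, then VUF11207 replicates 2, 1 and 3.

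S100a8 lies on the plus strand of chromosome 3 at 90668978 to 90670035 in mm10 and S100a9 on the minus strand at 90692632 to 90695721. Since their levels moved together, the 250 bases before their RefSeq starts (GRCm38.p6) are shown, chr3:90668821-90669070 on the plus strand for S100a8 and chr3:90695722-90695971 on the minus strand for S100a9. They are set beside those of S100a4 (chr3:90603520-90603769, plus strand) and S100a6 (chr3:90612644-90612893, plus strand), neighbouring members whose levels also moved together, as did that of S100a13. Capitals mark matches, on either strand, to 4 motifs: TTNNGNAA for C/EBP, a myeloid and epithelial factor family, GAGGAA for PU.1, a myeloid factor, TGANTCA for AP-1, and TATAAA for the TATA box.
S100a8: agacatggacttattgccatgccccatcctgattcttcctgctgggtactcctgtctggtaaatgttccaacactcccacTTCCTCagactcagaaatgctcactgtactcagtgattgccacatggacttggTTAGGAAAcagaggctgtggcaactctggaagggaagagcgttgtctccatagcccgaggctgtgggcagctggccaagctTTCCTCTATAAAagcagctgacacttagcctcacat
S100a9: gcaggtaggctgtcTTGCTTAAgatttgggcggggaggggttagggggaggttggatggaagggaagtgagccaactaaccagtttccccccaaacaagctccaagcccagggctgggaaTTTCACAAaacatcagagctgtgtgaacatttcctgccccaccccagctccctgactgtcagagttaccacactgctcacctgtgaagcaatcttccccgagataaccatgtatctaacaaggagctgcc
S100a4: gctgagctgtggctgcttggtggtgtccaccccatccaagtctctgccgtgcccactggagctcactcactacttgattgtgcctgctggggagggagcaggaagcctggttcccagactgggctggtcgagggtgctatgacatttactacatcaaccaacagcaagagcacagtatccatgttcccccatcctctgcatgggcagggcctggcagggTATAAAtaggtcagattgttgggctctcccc
S100a6: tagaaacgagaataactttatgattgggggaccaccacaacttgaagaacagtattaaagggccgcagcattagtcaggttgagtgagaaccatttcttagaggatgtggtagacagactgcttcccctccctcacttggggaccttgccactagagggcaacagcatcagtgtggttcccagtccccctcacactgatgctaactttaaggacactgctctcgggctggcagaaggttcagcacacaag
S100a8 held 1 match to TTNNGNAA, 2 to GAGGAA and 1 to TATAAA, the last starting 30 bases before the start and adjoining a GAGGAA match without overlap. S100a9 held 2 matches to TTNNGNAA and none to the other motifs. S100a4 held 1 match to TATAAA and S100a6 held none of the 4. Of 32817 windows of the same length over all genes, 36.8% held TTNNGNAA, 23.3% GAGGAA, 6.75% TGANTCA and 12.4% TATAAA. The matches are common and describe letters only. Promoters of 8 of the 9 members were in the table, and S100a10 was the exception.

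No gene of the 13753 tested passed an adjusted p of 0.05 in edgeR's quasi-likelihood test (0.0% of all genes), so 0 of the 9 members passed. Without adjustment, the edgeR p was under 0.05 for 2 of 9 members, S100a8 and S100a9, beside 1.43% of all genes. Both were lower with VUF11207, as were 0.473% of all genes at that level. The groups did not overlap for the same 2 members, both lower, against 2.52% of all genes lower and 3.05% higher. DESeq2 called 0 of the 9 members, against 0.0291% of all genes. Since the pair was chosen with this contrast known, these counts describe it and carry no further weight. Over all 9 members 6 fold changes were positive and 3 negative, with a median log2 fold change of 0.0095, beside a median of -0.04 and 55.3% negative over all genes.

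**Figure D3:**
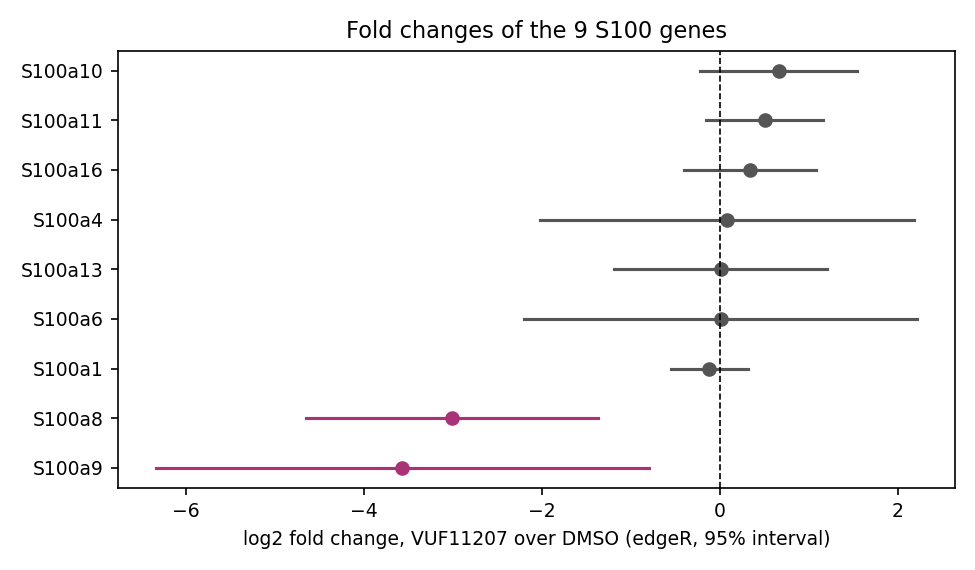
Log2 fold change of each S100 gene, VUF11207 over DMSO, from edgeR (points) with 95% intervals (lines), the calprotectin pair in purple and the other 7 genes in grey. The 7 other genes lie between -0.12 and 0.66 with intervals that span 0, and the pair lies at -3.00 and -3.56.

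Set against the 7 other members within each library, the pair stood lower with VUF11207. The mean log2 CPM of the pair minus that of the 7 others was -3.84, -3.44 and -5.03 with DMSO and -7.16, -7.02 and -8.56 with VUF11207. The group means were -4.11 ± 0.83 and -7.58 ± 0.85 (SD, n = 3 each), a difference of -3.47. Of every 10000 reads of the 9 members, the pair took 117, 179 and 58.7 with DMSO and 11.2, 12.9 and 3.37 with VUF11207. DMSO replicate 2, where seminal vesicle genes took most counts, thus had the largest share of the pair among S100 reads. The summed level of the 7 others was 1012, 403 and 498 CPM with DMSO and 480.4, 1087 and 703 CPM with VUF11207, and the groups overlapped.

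**Figure D4:**
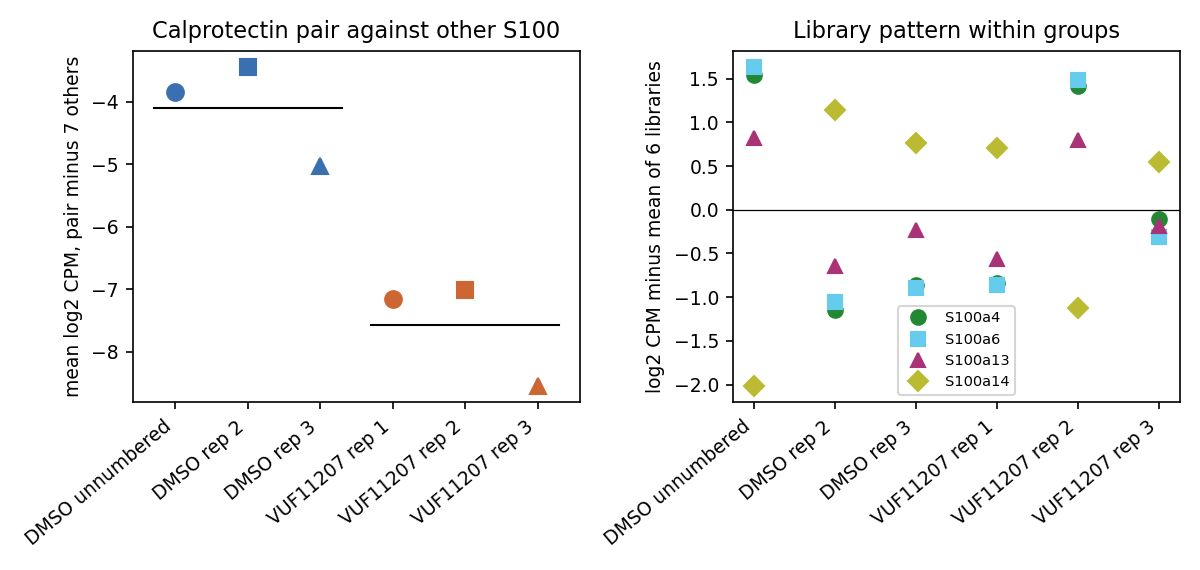
Left, mean log2 CPM of S100a8 and S100a9 minus that of the 7 other S100 genes in each library, with lines at the group means of -4.11 (DMSO, blue) and -7.58 (VUF11207, orange). Right, log2 CPM of S100a4, S100a6, S100a13 and S100a14 in each library minus the gene's mean over the 6 libraries, where the first 3 genes are highest in the unnumbered DMSO library and VUF11207 replicate 2, and S100a14 is lowest in those libraries.

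Other neutrophil genes gave a mixed picture, and in whole tissue fewer cells of a type and less RNA per cell cannot be told apart. Of 25 neutrophil genes other than the pair, 8 passed the count filter, 3 with positive and 5 with negative fold changes, a median log2 fold change of -0.44, and 0 past an adjusted p of 0.05 in edgeR or an unadjusted p of 0.05. Their summed level was 79.9, 133 and 236 CPM with DMSO and 190.1, 87.8 and 63.7 CPM with VUF11207, and the groups overlapped. Most of it came from genes that epithelia or other cells also express, Lcn2, Ltf and Hdc. Lcn2, an iron-siderophore binder, was at 9.66, 73.9 and 145 CPM with DMSO and 100.1, 28.8 and 38.8 CPM with VUF11207, and Ltf, lactoferrin, at 2.22 to 51.5 CPM over all libraries. Itgam, the integrin CD11b of neutrophils and macrophages, was at 7.51, 12.0 and 7.82 CPM against 7.40, 6.58 and 1.93 CPM, without overlap, a log2 fold change of -0.78 ± 0.52 (SE). G0s2 had the most negative log2 fold change of the 8, at -0.997 ± 0.81 (SE). It was at 4.14, 24.3 and 25.05 CPM with DMSO and 17.6, 4.93 and 4.23 CPM with VUF11207, and the groups overlapped. Mmp9, a gelatinase, and Il1r2, a decoy receptor for interleukin-1, had positive log2 fold changes of 0.87 ± 0.84 and 0.74 ± 0.99 (SE). Hdc, histidine decarboxylase, was the highest gene of the list in the unnumbered DMSO library and VUF11207 replicate 2. It did not follow the pair, at 50.3, 7.12 and 2.004 CPM against 3.41, 36.1 and 4.70 CPM.

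Ly6g, the defining surface marker of neutrophils, had 0 counts in every library. The 17 neutrophil genes that did not pass the filter had together 85, 45 and 53 counts with DMSO and 26, 89 and 17 counts with VUF11207, or 3.15, 3.17 and 1.71 CPM against 0.879, 2.99 and 0.575 CPM, and the groups overlapped. The following genes were chosen after their values were seen. Camp, the granule peptide cathelicidin, had 16, 13 and 4 counts against 1, 6 and 0 counts. Retnlg, a resistin-like protein of neutrophils, had 8, 8 and 4 counts against 0, 0 and 0. Ngp, Clec4d, Cd177, Fpr1, Cebpe, Cxcr2, Mmp8 and Trem1 also had fewer counts in all with VUF11207. Cxcr2, Retnlg and Trem1 had none in that group. Padi4, Mpo, Fpr2, Prtn3, Elane and Stfa2l1 had more counts in all with VUF11207. Padi4, a histone-citrullinating enzyme, had 0, 0 and 11 counts against 9, 9 and 12. Mpo, myeloperoxidase, had 0, 3 and 7 counts against 4, 13 and 0. Fpr2, a formyl peptide receptor, had 1, 0 and 4 counts against 1, 17 and 1. Csf3r, the G-CSF receptor, which passed the filter, overlapped between the groups, with 48, 3 and 24 counts against 10, 37 and 7. The part of neutrophil number in the levels of the pair was not tested.

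Blood and macrophage genes also leaned lower with VUF11207, but did not order the libraries as the pair did. Of 8 red blood cell genes, 6 were tested and all 6 were negative, with a median log2 fold change of -1.94, beside 55.3% negative over all genes. None passed an adjusted p of 0.05 in edgeR, and 2 of the 6 had an unadjusted p under 0.05, beside 0.473% of all genes lower at that level. Their summed level was 1845, 187 and 723 CPM with DMSO and 109, 503 and 81.1 CPM with VUF11207. Like the S100 pair, they were highest in the unnumbered DMSO library and ran from VUF11207 replicate 2 to 1 to 3 within that group. The orders differed in the place of DMSO replicate 2. It had 187 CPM of red blood cell genes and 7.33 CPM of the S100 pair, while VUF11207 replicate 2 had 503 CPM of the former and 1.41 CPM of the pair. Of 15 monocyte and macrophage genes tested, 14 were negative, beside the same 55.3%, with a median of -0.47, and 0 passed an adjusted or an unadjusted p of 0.05 in edgeR. Lyz2, the lysozyme of myeloid cells, was at 215, 44.6 and 85.2 CPM against 48.1, 109 and 43.8 CPM, and C1qa at 42.0, 28.7 and 28.7 CPM against 18.3, 36.0 and 17.6 CPM. Both overlapped between the groups. The part of blood and of myeloid cells in the values of the pair was not tested.

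**Figure D5:**
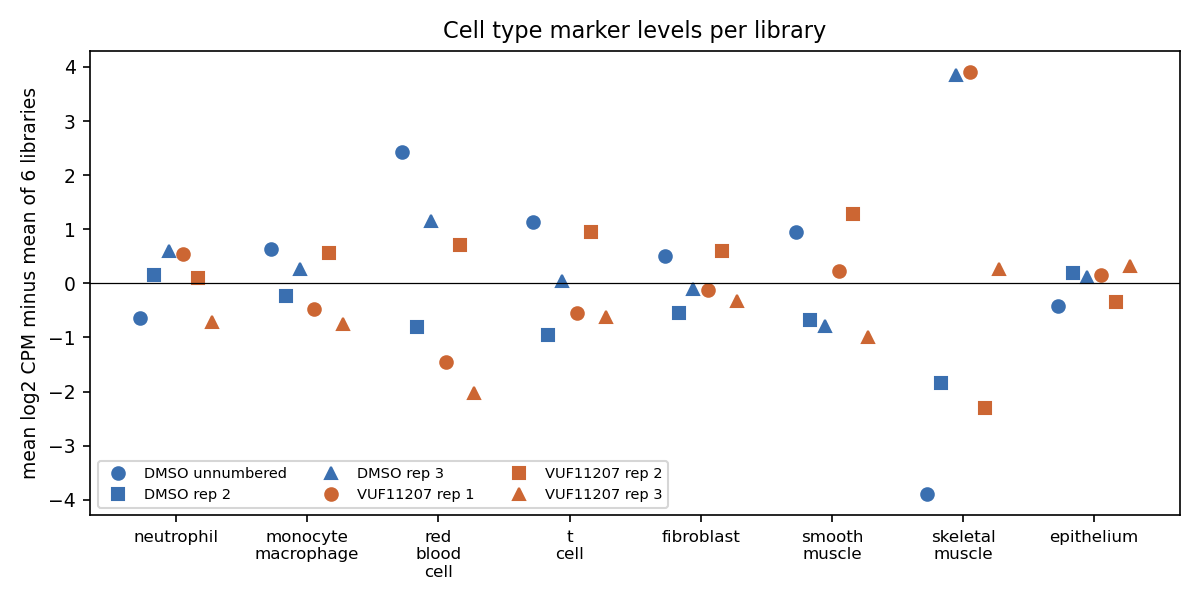
Level of each marker list in each library, as the mean over its tested genes of log2 CPM minus the gene's mean over the 6 libraries, blue for DMSO and orange for VUF11207. T cell and smooth muscle levels are highest in the unnumbered DMSO library and VUF11207 replicate 2, skeletal muscle is high in DMSO replicate 3 and VUF11207 replicate 1, and each list overlaps between the groups.

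The reported receptors and adaptors of calprotectin showed no fold change past the threshold. Of 11 listed, 10 were tested, with 4 positive and 6 negative, a median of -0.09, and 0 at an adjusted or an unadjusted p under 0.05 in edgeR. Bsg (basigin), the most abundant, was at 356, 526 and 417 CPM with DMSO and 454, 409 and 585 CPM with VUF11207. Myd88, the adaptor of Toll-like receptors, lay between 18.1 and 22.7 CPM in all 6 libraries. Ly96, the TLR4 co-receptor MD-2, was at 5.96, 5.71 and 2.71 CPM against 2.16, 3.46 and 4.02 CPM, a log2 fold change of -0.57 ± 0.46 (SE). Ager, which encodes RAGE, stood out in 1 library, at 16.7, 0.141 and 0.679 CPM against 0.778, 3.46 and 0.947 CPM, a log2 fold change of -1.76 ± 1.54 (SE).

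S100a4 and S100a6, the mesenchymal members, varied over a wide range within both groups and hardly between them. S100a6, which encodes calcyclin, was at 589.8, 91.0 and 102 CPM with DMSO and 104, 530.6 and 153 CPM with VUF11207. S100a4, which encodes a protein also known as FSP1, was at 58.4, 9.02 and 11.02 CPM with DMSO and 11.2, 53.5 and 18.5 CPM with VUF11207. For both genes the unnumbered DMSO library and VUF11207 replicate 2 were far above the other 4 libraries, and the groups overlapped. Group means of S100a6 were 261 CPM ± 285 and 263 CPM ± 233 (SD, n = 3 each), and the fitted log2 fold change was 0.0093 ± 0.92 (SE). S100a4 had a log2 fold change of 0.08 ± 0.88 (SE), with a 95% interval from -2.02 to 2.18. Without the unnumbered DMSO library the log2 fold change was 1.44 for S100a6 and 1.47 for S100a4, and without VUF11207 replicate 2 it was -1.01 and -0.81.

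The ratio of S100a6 to S100a4 counts stayed near constant while both levels moved, at 10.1, 10.1 and 9.28 with DMSO and 9.31, 9.91 and 8.28 with VUF11207. The highest library exceeded the lowest 6.48-fold for S100a6 and 6.48-fold for S100a4. The genes are neighbours among the members, S100a4 at 90603771 to 90606045 and S100a6 at 90612882 to 90624181 on the plus strand of chromosome 3. S100a5, not a member, lies between them at 90608523 to 90611780 on the same strand. It had 0, 0 and 2 counts with DMSO and 1, 0 and 1 counts with VUF11207. An exon of S100a4 shares 302 bases with Gm42674, an annotated gene on the same strand that is not a row of the table.

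S100a13, the least abundant member with this pattern, had the same libraries on top. It was at 19.6, 7.12 and 9.44 CPM with DMSO and 7.51, 19.2 and 9.77 CPM with VUF11207, a log2 fold change of 0.0095 ± 0.50 (SE). Beside these values, fibroblast genes summed to 714, 307 and 487 CPM with DMSO and 476, 807 and 495 CPM with VUF11207. Smooth muscle genes summed to 15729, 4920 and 4477 CPM against 8777, 19787 and 4220.0 CPM. T cell genes summed to 19.5, 5.64 and 10.7 CPM against 5.98, 22.2 and 6.36 CPM. Their part in the levels of S100a4, S100a6 and S100a13 was not tested.

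S100a10 and S100a11, the annexin partners, were highest in VUF11207 replicates 2 and 3. S100a10, or p11, which pairs with annexin A2 at the plasma membrane, was at 128, 68.1 and 92.8 CPM with DMSO and 89.2, 188 and 179 CPM with VUF11207. VUF11207 replicate 1 lay within the DMSO range, so the groups overlapped. The log2 fold change was 0.66 ± 0.37 (SE), with a 95% interval from -0.22 to 1.54. S100a11, a partner of annexin A1, was at 111, 85.7 and 138 CPM with DMSO and 119.6, 170.4 and 185 CPM with VUF11207. Here too VUF11207 replicate 1 lay among the DMSO libraries, and the log2 fold change was 0.51 ± 0.28 (SE), with a 95% interval from -0.15 to 1.16. A processed pseudogene of S100a11 is annotated on another chromosome, and reads shared with it would make the value of S100a11 uncertain.

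Genes of intracellular S100 partners leaned higher, with 12 of 18 positive and a median of 0.22 on the log2 scale, beside -0.04 over all genes. None passed an adjusted p of 0.05 in edgeR, and 2 had an unadjusted p under 0.05, Anxa1 and Syt1, where 0.953% of all genes were higher at that level. Anxa1 was at 59.5, 58.4 and 121 CPM with DMSO and 119, 140.2 and 194 CPM with VUF11207, with DMSO replicate 3 above VUF11207 replicate 1. Its log2 fold change was 0.92 ± 0.36 (SE). Anxa2 was at 65.7, 89.3 and 132 CPM against 142, 123 and 209.6 CPM, a log2 fold change of 0.73 ± 0.34 (SE). The ratio of S100a10 to Anxa2 counts was not constant, at 1.94, 0.762 and 0.704 with DMSO and 0.628, 1.52 and 0.853 with VUF11207. It was highest in the unnumbered DMSO library and VUF11207 replicate 2, the libraries with most S100a4 and S100a6.

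S100a16 and S100a1 completed the set. S100a16, a broadly expressed member, was at 42.0, 84.7 and 76.9 CPM with DMSO and 82.3, 69.8 and 105 CPM with VUF11207, lowest in the unnumbered DMSO library, where epithelial marker genes summed to 1937 CPM against 2043 to 2925 CPM elsewhere. The log2 fold change of S100a16 was 0.34 ± 0.31 (SE). It was 0.0891 without the unnumbered DMSO library. S100a1, which regulates calcium handling in striated muscle, was the steadiest member, at 64.1, 57.6 and 67.2 CPM with DMSO and 66.5, 55.9 and 51.5 CPM with VUF11207, the highest library exceeding the lowest 1.30-fold. Its log2 fold change was -0.12 ± 0.18 (SE), with a 95% interval from -0.55 to 0.32, and it turned to 0.0229 when scaled by library totals alone. Skeletal muscle genes summed to 5500.3 CPM in DMSO replicate 3 and 5772 CPM in VUF11207 replicate 1 against 456 to 1278 CPM elsewhere. S100a1 was at 67.2 and 66.5 CPM in those libraries.

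Of the S100 genes outside the set, S100a14 and S100b passed the filter. S100a14, an epithelial member, ran against S100a4 and S100a6, at 0.777, 6.97 and 5.36 CPM with DMSO and 5.14, 1.44 and 4.60 CPM with VUF11207, lowest in the unnumbered DMSO library and VUF11207 replicate 2. Its log2 fold change was -0.22 ± 0.83 (SE). S100b, known from glia and some immune cells, was at 0.211 to 1.18 CPM with a log2 fold change of -0.22 ± 0.76 (SE). S100g had 16, 1 and 4 counts with DMSO and 5, 1 and 19 counts with VUF11207, S100a3 had 0, 1 and 5 against 1, 16 and 0, and S100a7a had at most 6 counts in a library. S100z had 0, 1 and 5 counts against 7, 0 and 0, and S100a5 had at most 2 counts in a library.

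The genes most like each member over the 6 libraries were taken by Pearson r of log2 CPM, as a description over 6 libraries that share 1 scaling. Nsd2 (r = 0.99), Mob3c (0.98) and Prxl2c (0.98) were most like S100a8, and Tial1 (0.99), Ammecr1 (0.98) and E2f5 (0.98) most like S100a9. Candidates averaged 1 or more in log2 CPM, so the 17 neutrophil genes under the count filter could not appear here. S100a6 was most like Camta1, Rbpj and Phf14 and S100a4 most like Rab9, Tmsb10 and Phf14, with r of 0.995 to 0.997. S100a13 was most like Cxcl9 (r = 0.996), an interferon-induced chemokine, at 39.2, 1.83 and 3.23 CPM with DMSO and 1.59, 34.9 and 3.99 CPM with VUF11207. Without the unnumbered DMSO library and VUF11207 replicate 2, the r of these genes was 0.949 to 0.995 with S100a4, 0.882 to 0.998 with S100a6 and 0.959 to 0.976 with S100a13. An r of at least 0.95 was not limited to the genes named here. Of 11553 candidate genes, 216, 247, 187 and 217 reached it for S100a4, S100a6, S100a13 and S100a16, and 15 to 31 for each other member. S100a10 was most like Tfpt, Triqk and Zcchc10, S100a11 most like Kti12, Nin and Rnf34, S100a16 most like Tdrd7, Cltc and Mthfsd, and S100a1 most like Slc43a1, Ociad2 and Qtrt2.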

How the data were processed

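RNA of 6 prostate libraries was sequenced, and the authors deposited raw counts of reads for 18697 gene symbols. The submitters' processing notes name fastp, HISAT2, HTSeq and mm10, without versions. The annotation, the strand setting and how reads with several matches were counted: not given in the sources used here. Counts in all 5 samples' own files were identical to the table. Groups came from the titles, except for 1 column placed with DMSO by its own name. It matched no file of a sample, has no replicate number from a title and would by elimination be replicate 1. Nothing says that libraries came from separate mice, so the p-values reflect only how these samples vary, which may be technical.

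Counts were scaled by TMM and filtered with filterByExpr (minimum count 10) in edgeR 4.0.16, which left 13753 genes, and compared by its robust quasi-likelihood test, two-sided, with Benjamini-Hochberg adjustment over all genes. SEs and 95% intervals came from the fold change and F statistic. Log2 CPM used a prior count of 2. An exact permutation test of 3 against 3 libraries cannot go below 0.1, so none was run. The test was tested on simulated data. With totals alone the median over all genes was 0.14 on the log2 scale, against -0.04 with TMM.

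The members and 14 gene lists were chosen with earlier results of these data known. Named were the members and other detected S100 genes, up to 4 of the most abundant genes of each list, up to 4 with the smallest p of the neutrophil, receptor and partner lists, and the 3 genes most like each member among genes averaging 1 or more in log2 CPM, leaving out Gm, Rik and LOC names. Outside this rule are Hoxb13, Pbsn, Ly6g, the overlapping gene Gm42674 and the neutrophil genes marked as chosen after their values were seen. Gene positions and exon lengths are those of GENCODE M21 (mm10), promoters those of RefSeq. Alternatives were DESeq2 1.42.0, limma 3.58.1 voom, other scaling and filters, the replicate number as a block, and leaving out libraries. R was version 4.3.3 and Python version 3.11.15.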

Additional observations from a re-analysis of the deposited data

How the results depend on the processing

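S100a8 and S100a9 stayed lower with VUF11207 under all 14 alternatives, from -3.37 to -2.62 and from -5.46 to -2.55 on the log2 scale, with adjusted p from 0.067 (DESeq2) and from 0.52 upward. The pair was chosen with this contrast known and its groups did not overlap. Leaving out libraries could therefore hardly turn its sign, and the constant sign carries no further weight. S100a10, S100a11 and S100a16 stayed positive under all 14. S100a1 turned to 0.0229 with library totals only. S100a4 turned to -0.31, -0.28 and -0.81 without DMSO replicate 2, DMSO replicate 3 and VUF11207 replicate 2. S100a6 turned to -0.38, -0.37 and -1.01 without the same libraries and to -0.0136 with library totals only. S100a13 turned to -0.25, -0.13 and -0.48 without them and to -0.052 with limma voom. Without the unnumbered DMSO library S100a4, S100a6 and S100a13 were at 1.47, 1.44 and 0.55. With 1 library left out, the median of the 9 members ran from -0.48 to 0.50, and the difference of the pair from the 7 others from -3.94 to -2.98. That difference was -3.81 with a prior count of 0.5 and -3.51 with library totals only. Over all genes DESeq2 called 4 and edgeR with library totals only 3, and the other alternatives called 0. Numbers 2 and 3 occur in both groups, and no label says that a number pairs libraries. Deviations of same-numbered libraries correlated with r = 0.063. With 2 libraries per group those deviations mirror each other, so this r cannot decide whether numbers pair libraries. With the replicate number as a block over the 4 libraries numbered 2 and 3, 0 genes passed and the median of the members was 0.72. Without the block over the same 4 libraries, an alternative chosen after seeing the data, it was 0.68, with 0 genes. Numbers in the column names also recur in both groups, including that of the unnumbered DMSO library, which these 2 fits left out. The low depth of S100a8 and S100a9 limits their values. The cause of these shifts was not tested beyond the libraries left out.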

Other observations

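S100a1 and S100a13 lie head to head on chromosome 3, and their RefSeq starts are 104 bases apart on opposite strands. Over the libraries they did not move together: S100a13 differed 2.76-fold between its highest and lowest library and S100a1 1.30-fold, and their exons did not overlap in the annotation. S100a3, beside S100a4, had 16 counts in VUF11207 replicate 2, where S100a4 was high, but 0 counts in the unnumbered DMSO library, where S100a4 was higher still.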
